A study of Mus musculus with 24 samples.

Results

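The comparison described here sets livers lacking both Atg5 and Tsc1 (DKO, 4 libraries) against livers lacking Tsc1 alone (TSC1 KO, 4 libraries), and so shows what the Atg5 deletion adds where the Tsc1 deletion is already present. Its 8 libraries were chosen by the genotype in the labels, out of 24 in the series. The same deletion in otherwise normal liver, Atg5 KO (4 libraries) against wild type (WT, 4 libraries), serves as the second measurement of Atg5 loss and shares no library with the first. Bulk RNA of whole liver was sequenced from C57BL/6J mice aged 2 months in all 4 groups. The genotypes read hepatic Atg5/TSC1 DKO, hepatic TSC1 KO, hepatic Atg5 KO and wild type, so DKO and TSC1 KO share the Tsc1 deletion and differ in Atg5. The labels name neither the Cre driver nor the deleted exons, sex or litter, nor whether every library is from a different animal, so p-values here measure the spread between libraries, which may be technical. Readouts other than RNA are not part of these data.

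Atg5 belongs to the conjugation machinery that attaches LC3-family proteins to the membrane of the forming autophagosome, and without it bulk autophagy stops. Tsc1 is a subunit of the complex that keeps the kinase mTORC1 in check, and active mTORC1 drives protein and lipid synthesis while holding back the start of autophagy and the lysosomal transcription factor TFEB. In hepatocytes that lack autophagy, the receptor p62 (Sqstm1) builds up and sequesters KEAP1, which frees the transcription factor NRF2 (Nfe2l2). Such livers are known for enlargement, injury, scarring and the expansion of bile duct-like cells called the ductular reaction.

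Total counts per library ran from 11403175 to 13007760 in DKO, from 11403975 to 12465339 in TSC1 KO, from 11707734 to 13057467 in Atg5 KO and from 11283916 to 11675002 in WT. Levels are CPM, counts as a share of the library total, with totals scaled by TMM, a normalisation that assumes most genes do not change. A gene was called at an adjusted p under 0.05 (edgeR's quasi-likelihood test, Benjamini-Hochberg over the 15851 genes tested). The scaling mattered, because TMM factors were 1.49 to 1.56 in DKO and 0.803 to 0.852 in TSC1 KO. With total counts alone the median log2 fold change of all genes in DKO versus TSC1 KO was 0.96 in place of 0.10, and 85.0% of the calls were higher in DKO in place of 54.9%. In Atg5 KO versus WT the median became 0.37 in place of 0.00, and the share of calls that were higher 94.2% in place of 62.1%. Changes below are therefore relative to the bulk of genes, and a direction that turns with the scaling is stated beside it. On the first principal component, which held 62.7% of the variance of the most variable genes, DKO libraries lay at 95 to 108, TSC1 KO at -57.3 to -37.1, Atg5 KO at -25.7 to -0.325 and WT at -83.4 to -76.7. Atg5 KO library 2 lay farthest from its group there, and WT library 4 had 26.7% of its counts in its top 20 genes, against 21% to 21.6% in the other WT libraries. The model was fitted over all 24 libraries, and 1 of another genotype, Nrf2 TKO library 2, is named where a call changed without it. All 16 libraries had 807 or more counts of the Y-linked gene Ddx3y and at most 6 of Xist. The liver label was borne out by hepatocyte markers in every library, with Alb at 5783 CPM or more, while the pancreatic gene Cel had 0 counts in all 16 and the adipocyte gene Adipoq at most 0.227 CPM.

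The targeted gene was lower in DKO than in TSC1 KO. Atg5 had 24.1, 25.1, 20.1 and 24.5 CPM in DKO libraries and 88.5, 81.95, 79.8 and 84.5 CPM in TSC1 KO libraries, a log2 fold change of -1.84 ± 0.12 (SE, n = 4 each, adjusted p = 4.52e-11). All 4 DKO libraries were below all 4 TSC1 KO libraries. Without the Tsc1 deletion the whole-gene count went the other way, at 46.7, 38.6, 46.7 and 40.1 CPM in Atg5 KO against 31.4, 27.7, 25.5 and 22.5 CPM in WT (0.68 ± 0.12, adjusted p = 0.000267). TSC1 KO libraries thus had more Atg5 than any library of the other groups, and the DKO range overlapped that of WT. A count over the whole gene does not show whether the deleted exons are absent. Tsc1 itself, deleted in both groups, averaged 36.6 ± 12.1 CPM in DKO and 30.98 ± 1.99 CPM in TSC1 KO, with overlapping libraries and no call (adjusted p = 0.27; 1.10 and called when scaled by total counts only). Sqstm1, the gene of p62, averaged 961 ± 157 CPM in DKO and 738 ± 71.95 CPM in TSC1 KO (SD, n = 4 each), and its 0.38 change was not called (adjusted p = 0.186) though with total counts alone it was (1.24, adjusted p = 0.000133). Nfe2l2, the gene of NRF2, averaged 113 ± 32.7 CPM in DKO and 93.2 ± 10.9 CPM in TSC1 KO (0.28 ± 0.19, adjusted p = 0.2), which when scaled by total counts only was 1.14 and called (adjusted p = 9.5e-05). Nfe2l2 was higher in Atg5 KO than in WT (0.76 ± 0.19, adjusted p = 0.00435).

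Of the 15851 genes tested, 10569 (66.7%) were called between DKO and TSC1 KO, 5807 higher in DKO (36.6%) and 4762 lower (30.0%). Between Atg5 KO and WT 4738 were called (29.9%), 2944 higher in Atg5 KO (18.6%) and 1794 lower (11.3%). The lower ones numbered 1106 without Atg5 KO library 1, 1113 without Atg5 KO library 4 and 1152 without WT library 4. The size of the Atg5 effect with the Tsc1 deletion differed from that without it, as an interaction, in 5517 genes (34.8%), of which 2451 had the more positive change in DKO versus TSC1 KO (15.5%) and 3066 the more negative (19.3%). With total counts alone this balance turned, with 5620 more positive and 1684 more negative (76.9% positive in place of 44.4%). The libraries of the 2 groups did not overlap for 63.5% of genes between DKO and TSC1 KO and for 27.8% between Atg5 KO and WT. These shares are the background against which the gene lists below are read.

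The programme of the mature hepatocyte was lower in DKO throughout. Of 32 tested genes for hepatocyte secreted and metabolic proteins, 32 were lower in DKO than in TSC1 KO and 0 higher, with a median log2 fold change of -2.53 beside 0.10 over all genes. Albumin (Alb), the main plasma protein, had 6690, 7339, 5783 and 6806 CPM in DKO and 43280, 47390, 43160 and 36450 CPM in TSC1 KO, so that no libraries overlapped. Its log2 fold change was -2.68 ± 0.28 (adjusted p = 1.81e-08), and less hepatocyte RNA cannot be told apart here from fewer hepatocytes, since whole tissue was measured. Without the Tsc1 deletion 10 of the 32 were lower in Atg5 KO than in WT, a count that ran from 4 without Atg5 KO library 1 to 20 without Atg5 KO library 2 and was 3 with total counts alone (median -0.16 in place of -0.51). Alb had 30590, 74580, 36340 and 23950 CPM in Atg5 KO and 62150, 61710, 67800 and 43410 CPM in WT, with the highest value in Atg5 KO library 2 and no call (adjusted p = 0.152), though without that library the change was -0.96 and called (adjusted p = 0.0014). The interaction was called negative for 28 of the 32 genes and for Alb was -2.17 ± 0.37 (adjusted p = 9.76e-05). The sum of the 32 genes ran from 28150 to 38700 CPM in DKO, 162700 to 178000 CPM in TSC1 KO, 93610 to 184300 CPM in Atg5 KO and 175000 to 184200 CPM in WT.

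Enzymes of drug and alcohol metabolism around the central vein fell further. Of 35 tested, 30 were lower and 2 higher in DKO, with a median of -3.31. Cyp2e1, which oxidises ethanol, had 245, 262, 149 and 153 CPM in DKO and 6020, 3541, 6751 and 6244 CPM in TSC1 KO (-4.80 ± 0.28, adjusted p = 8.12e-12). Cyp2e1 had 3111, 3499, 2466 and 2220 CPM in Atg5 KO and 6365, 6735, 6121 and 8609 CPM in WT (-1.30 ± 0.24, adjusted p = 0.000324). Both Atg5 comparisons lowered it without overlap of libraries, and the fall with the Tsc1 deletion was the larger (interaction -3.50 ± 0.35, adjusted p = 1.65e-07). Cyp3a11, a broad drug oxidase, averaged 268 ± 150.5 CPM in DKO and 5444 ± 156 CPM in TSC1 KO. The count of 2 higher genes became 1 without DKO library 1 or 2 or any 1 TSC1 KO library. Bile acid handling moved the same way, with 23 of 26 tested genes lower in DKO and 1, the exporter Abcc4, higher (18 and 5 with total counts alone). The main bile acid importer Slc10a1 had 26.3, 23.3, 10.99 and 15.1 CPM in DKO and 677, 561, 719.7 and 786 CPM in TSC1 KO (-5.18 ± 0.32, adjusted p = 1.6e-11). Its fall in Atg5 KO, 308, 387, 296 and 254 CPM against 596, 596, 474 and 491 CPM in WT, was much smaller (-0.79 ± 0.27, adjusted p = 0.028; interaction -4.39 ± 0.39, adjusted p = 5.87e-08), and its call was lost without any one of Atg5 KO libraries 1, 3 and 4 and WT libraries 1 and 2 (adjusted p up to 0.0875). The Slc10a1 call in Atg5 KO was also lost with total counts alone (-0.435, adjusted p = 0.163) and with no filter on low counts (adjusted p = 0.0823). The organic anion importer Slco1b2 averaged 56.4 ± 26 CPM in DKO and 1490 ± 381 CPM in TSC1 KO.

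Transcription factors that maintain hepatocyte identity were also lower. Of 26 tested, 19 were lower in DKO, with a median of -1.16, and 2 were higher, among them Foxa1, named after its values were seen (1 higher without DKO library 4 or TSC1 KO library 2 or 3). Cebpa averaged 130.2 ± 17.9 CPM in DKO and 539.8 ± 37.5 CPM in TSC1 KO (-2.05 ± 0.14). Creb3l3, a membrane-bound factor for lipid and acute-phase genes, averaged 58.96 ± 22.6 CPM in DKO and 311 ± 39.99 CPM in TSC1 KO (-2.40 ± 0.21). Hnf4a had 213, 259, 218 and 264 CPM in DKO and 464, 546, 559.7 and 553 CPM in TSC1 KO (-1.15 ± 0.25, adjusted p = 0.000305). The groups of Hnf4a did not overlap, but with total counts alone its change was -0.29 and no longer called. Under that scaling 10 of the 26 factors were lower in DKO and 7 higher.

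Secreted plasma proteins followed. Of 35 coagulation and complement genes 32 were lower in DKO and 0 higher, with a median of -2.39. Plasminogen (Plg) had 327, 378, 298 and 294 CPM in DKO and 3319, 2815, 2604 and 2666 CPM in TSC1 KO (-3.14 ± 0.21). Plg had 1660, 2532, 1791 and 1507 CPM in Atg5 KO and 3994, 3860, 2874 and 3668 CPM in WT (-0.94 ± 0.20). Both changes were called and the first was the larger (interaction -2.19 ± 0.28, adjusted p = 3.32e-06). Clotting factor F9 averaged 29.4 ± 6.31 CPM in DKO and 241 ± 7.88 CPM in TSC1 KO, whereas complement C3 averaged 3510 ± 378 CPM in DKO and 4690 ± 1011 CPM in TSC1 KO and was not called (adjusted p = 0.161; with total counts alone its change was 0.44). In the acute-phase list, genes that the liver turns up in inflammation, 14 of 25 were lower in DKO and 1, Lcn2, higher, and with total counts alone 10 lower and 5 higher. Saa4 averaged 13.04 ± 8.41 CPM in DKO and 287 ± 86.7 CPM in TSC1 KO (-4.46 ± 0.62), and in the other comparison 208 ± 77.4 CPM in Atg5 KO and 1133 ± 456 CPM in WT (-2.44 ± 0.56). Serpina3k averaged 153 ± 116 CPM in DKO and 10080 ± 1001 CPM in TSC1 KO, and C-reactive protein (Crp) 135 ± 19.5 CPM in DKO and 684 ± 104 CPM in TSC1 KO. WT library 4 stood apart in this list: its acute-phase genes summed to 230600 CPM, the lowest of the WT libraries to 61280 CPM, and the number lower in Atg5 KO than in WT, 18 of 25, became 11 without it.

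**Figure D1:**
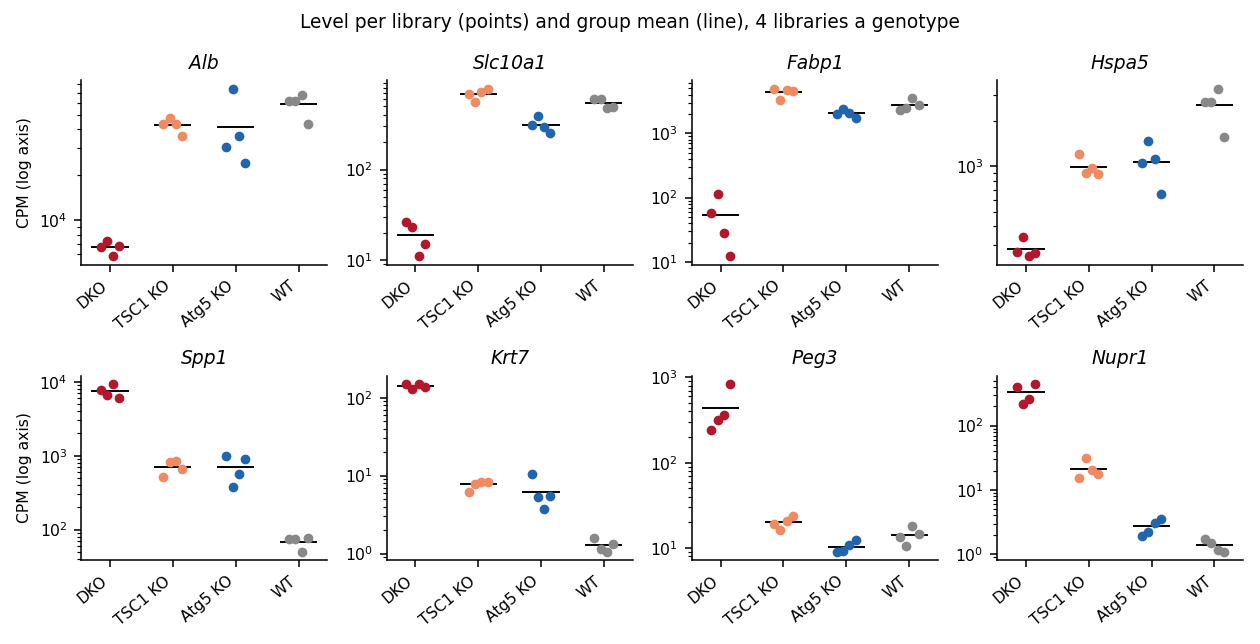
CPM per library on log axes for 8 genes in DKO, TSC1 KO, Atg5 KO and WT livers; points are libraries and lines group means. Alb, Slc10a1, Fabp1 and Hspa5 were lowest in the 4 DKO libraries, and Spp1, Krt7, Peg3 and Nupr1 highest, with no DKO library overlapping another group.

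Genes of energy and lipid metabolism fell in DKO and mostly not in Atg5 KO. Of 34 nuclear genes for subunits of oxidative phosphorylation, 34 were lower in DKO than in TSC1 KO, with changes from -1.99 to -1.09, and the interaction was called negative for all 34. In Atg5 KO versus WT 13 of the 34 were lower, from 6 without Atg5 KO library 4 to 20 without Atg5 KO library 2, and with total counts alone 0 were called and the median turned from -0.34 to 0.03. Sdhb, the iron-sulphur subunit of complex II, had 93.1, 83.5, 72.9 and 85.2 CPM in DKO and 397, 299.7, 269 and 306 CPM in TSC1 KO (-1.93 ± 0.15, adjusted p = 2.18e-10). Sdhb had 181, 237, 206 and 152 CPM in Atg5 KO and 234, 244, 215 and 212 CPM in WT (-0.22, adjusted p = 0.259), a change of 0.13 when scaled by total counts only. Atp5b, of the ATP synthase, averaged 621 ± 41.4 CPM in DKO and 1507 ± 95.6 CPM in TSC1 KO. Of the 13 mitochondrially encoded genes 7 were lower in DKO, with mt-Co1 at 5587 ± 1407 CPM in DKO and 14850 ± 1560 CPM in TSC1 KO and mt-Cytb at 3841 ± 744 CPM in DKO and 11200 ± 1876 CPM in TSC1 KO. With total counts alone 5 of the 13 were lower and the median was -0.04 in place of -0.96.

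Fatty acid oxidation and PPARA target genes were lower in 28 of 32 and higher in 1, Crat, whose count of 1 became 0 without DKO library 4 or TSC1 KO library 2, 3 or 4. Fabp1, the liver's fatty acid carrier, had 57.99, 113, 27.7 and 12.2 CPM in DKO and 4966, 3273, 4786 and 4636 CPM in TSC1 KO (-6.39 ± 0.49, adjusted p = 2.77e-10), while Atg5 KO had 2009, 2379, 2050 and 1749 CPM and WT 2278, 2467, 3607 and 2726 CPM (-0.44, adjusted p = 0.43). The interaction of -5.95 ± 0.60 (adjusted p = 1.97e-07) was among those called in 27 of the 32. Lipogenesis and cholesterol synthesis, a process that mTORC1 promotes, was lower in 28 of 34 genes and higher in 2, Srebf2 and Scd2. Scaled by total counts only, 15 were lower and 4 higher, and the median was -0.53 in place of -1.39. Scd1, the main hepatic desaturase, averaged 541 ± 245 CPM in DKO and 7813 ± 1541 CPM in TSC1 KO (-3.85 ± 0.41). Scd2, the form used outside adult liver, averaged 365 ± 112 CPM in DKO and 32.9 ± 14.3 CPM in TSC1 KO (3.47 ± 0.36). Mlxipl, the carbohydrate-responsive factor ChREBP, averaged 58.6 ± 4.84 CPM in DKO and 454 ± 56.9 CPM in TSC1 KO. Glycolytic genes split, 8 of 23 higher and 10 lower, and with total counts alone 14 higher and 5 lower. Such a split lies near that of all genes, 36.6% higher and 30.0% lower. The pyruvate kinase Pkm, low in mature hepatocytes, averaged 74.7 ± 5.801 CPM in DKO and 13.6 ± 1.07 CPM in TSC1 KO (2.46 ± 0.20).

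Genes of bile duct and ductular cells rose. Of 34 tested, 31 were higher in DKO than in TSC1 KO and 0 lower (median 2.83), and 29 were higher in Atg5 KO than in WT and 1, Onecut2, lower (median 2.60). The interaction was called positive for 7 and negative for 2, and with total counts alone for 11 and 1. Osteopontin (Spp1), a secreted protein of duct cells and injured liver, had 7680, 6557, 9305 and 6047 CPM in DKO and 510.1, 815, 851 and 666 CPM in TSC1 KO. Spp1 had 980.0, 374, 571 and 909 CPM in Atg5 KO and 73.8, 74.04, 50.4 and 76.2 CPM in WT. Neither pair overlapped, and the log2 fold changes were 3.38 ± 0.29 (adjusted p = 1.01e-09) in DKO versus TSC1 KO and 3.37 ± 0.29 (adjusted p = 3.54e-08) in Atg5 KO versus WT. The duct keratin Krt7 had 148, 131, 149.7 and 135 CPM in DKO and 6.23, 7.78, 8.41 and 8.37 CPM in TSC1 KO (4.19 ± 0.29). Krt7 had 10.4, 5.302, 3.74 and 5.51 CPM in Atg5 KO and 1.59, 1.16, 1.06 and 1.34 CPM in WT (2.28 ± 0.37). The tight-junction protein Cldn4 averaged 150.0 ± 35.7 CPM in DKO and 2.34 ± 0.879 CPM in TSC1 KO (5.99 ± 0.39). The integrin Itgb4, which anchors epithelium to basement membrane, averaged 63.2 ± 8.398 CPM in DKO and 3.09 ± 0.4495 CPM in TSC1 KO (4.35 ± 0.31). Summed over the list, ductular genes reached 11590 to 14840 CPM in DKO, 2065 to 2398 CPM in TSC1 KO, 1832 to 3379 CPM in Atg5 KO and 1254 to 1482 CPM in WT. Spp1 alone made up most of each DKO sum.

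Targets of the growth coactivators YAP and TAZ, which act through TEAD factors, rose with the duct genes. The list also holds genes of the pathway itself, such as Yap1, Wwtr1 and Tead2. Of 25 tested, 20 were higher in DKO and 1, Yap1 itself, lower. Yap1 averaged 69.5 ± 7.91 CPM in DKO and 95.2 ± 7.86 CPM in TSC1 KO (-0.45 ± 0.12, adjusted p = 0.00233), and with total counts alone the direction turned (0.41, called). Wwtr1, the gene of TAZ, averaged 60.1 ± 12.3 CPM in DKO and 14.4 ± 2.33 CPM in TSC1 KO (2.07 ± 0.19). Tead2 had 24.1, 23.6, 33.5 and 21.9 CPM in DKO and 1.53, 2.28, 1.93 and 1.48 CPM in TSC1 KO (3.82 ± 0.28). Tead2 had 1.601, 2.16, 1.11 and 1.14 CPM in Atg5 KO and 0.681, 0.578, 0.953 and 0.609 CPM in WT (1.06 ± 0.35). Its rise was larger with the Tsc1 deletion (interaction 2.76 ± 0.47, adjusted p = 7.95e-05), and the call in Atg5 KO was lost without Atg5 KO library 1 or 2 or WT library 2 or 4 (adjusted p up to 0.082). The interaction was called positive for 10 of the 25 and negative for 0. Ankrd1, a classical target with TEAD sites, had 112, 246, 238 and 243 CPM in DKO and 2.84, 3.23, 5.51 and 8.18 CPM in TSC1 KO (5.4 ± 0.53, adjusted p = 2.31e-08). Ankrd1 had 12.96, 5.57, 5.97 and 5.19 CPM in Atg5 KO and 0.681, 0.808, 1.16 and 0 CPM in WT (3.44 ± 0.70). DKO library 1 was the lowest of its group for Ankrd1 and still far above every TSC1 KO library.

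Promoter windows from RefSeq (GRCm38.p6, 250 bases before to 50 after each start site) were searched on both strands for the TEAD motif GGAATG. It was found in 13 of the 20 genes of the YAP and TEAD list that had a window, and in 16.6% of all 27025 genes with one. The list was drawn up from genes known for such regulation and from genes of the pathway itself, and Yap1, Wwtr1, Vgll3 and Vgll4 are among the 13. A match is a description of letters, not a bound site. The Ankrd1 window, on chromosome 19, minus strand, held 2 copies, which are shown because this gene had the largest rise of the list; capitals mark the motif.
Ankrd1 chr19:36120024-36120079, motif 210 bases before the start: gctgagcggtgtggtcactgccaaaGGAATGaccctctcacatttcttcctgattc
Ankrd1 chr19:36119937-36119992, motif 123 bases before the start: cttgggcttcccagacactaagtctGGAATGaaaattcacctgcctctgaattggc

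Fetal-liver and liver tumour genes showed the highest median of any list, 3.28, with 22 of 28 tested higher in DKO and 2 lower. The imprinted growth-related RNA H19, high in fetal liver and nearly silent in adult liver, had 520.0, 712, 777 and 269.8 CPM in DKO and 0.547, 2.37, 1.35 and 3.55 CPM in TSC1 KO (8.16 ± 1.02, adjusted p = 7.95e-07). H19 had 0.686, 1.17, 0.398 and 0.811 CPM in Atg5 KO and 0.567, 0, 0 and 0.365 CPM in WT. The second pair overlapped and was not called (adjusted p = 0.517). The difference between the 2 effects was not called either (adjusted p = 0.109). That difference was called by DESeq2 (adjusted p = 1.16e-05), where only the groups compared were fitted (adjusted p = 0.00842) and without Nrf2 TKO library 2 (adjusted p = 0.0336). The imprinted zinc-finger gene Peg3 had 243, 314, 358 and 835 CPM in DKO and 19.2, 16.3, 20.9 and 23.7 CPM in TSC1 KO (4.45 ± 0.37, adjusted p = 1.45e-09). Peg3 had 9.07, 9.17, 10.8 and 12.3 CPM in Atg5 KO and 13.5, 10.6, 18.2 and 14.5 CPM in WT (-0.46, adjusted p = 0.346). For Peg3 the difference was called (interaction 4.91 ± 0.50, adjusted p = 3.17e-07). The 2 members that fell were the imprinted long RNAs Meg3 (-2.94 ± 0.57) and Rian (-3.68 ± 0.62), which lie in 1 cluster. The hyaluronan receptor Cd44 averaged 42.9 ± 5.53 CPM in DKO, 3.73 ± 0.677 CPM in TSC1 KO, 25.5 ± 9.296 CPM in Atg5 KO and 7.18 ± 1.59 CPM in WT, and rose in both comparisons, more with the Tsc1 deletion (interaction 1.69 ± 0.34, adjusted p = 0.000482). Akr1b8, an aldo-keto reductase, averaged 27.6 ± 3.56 CPM in DKO and 2.34 ± 0.276 CPM in TSC1 KO (3.55 ± 0.31). Akr1b8 averaged 4.23 ± 1.08 CPM in Atg5 KO and 1.49 ± 0.518 CPM in WT (1.49 ± 0.34). Among 22 simple-epithelial and calcium-binding genes 16 were higher and 2, S100a1 and S100a13, lower. S100a6 averaged 183 ± 28.8 CPM in DKO and 4.19 ± 0.406 CPM in TSC1 KO (5.44 ± 0.30). Annexin Anxa3 averaged 250.1 ± 27.3 CPM in DKO and 7.92 ± 2.83 CPM in TSC1 KO (4.97 ± 0.30).

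**Figure D2:**
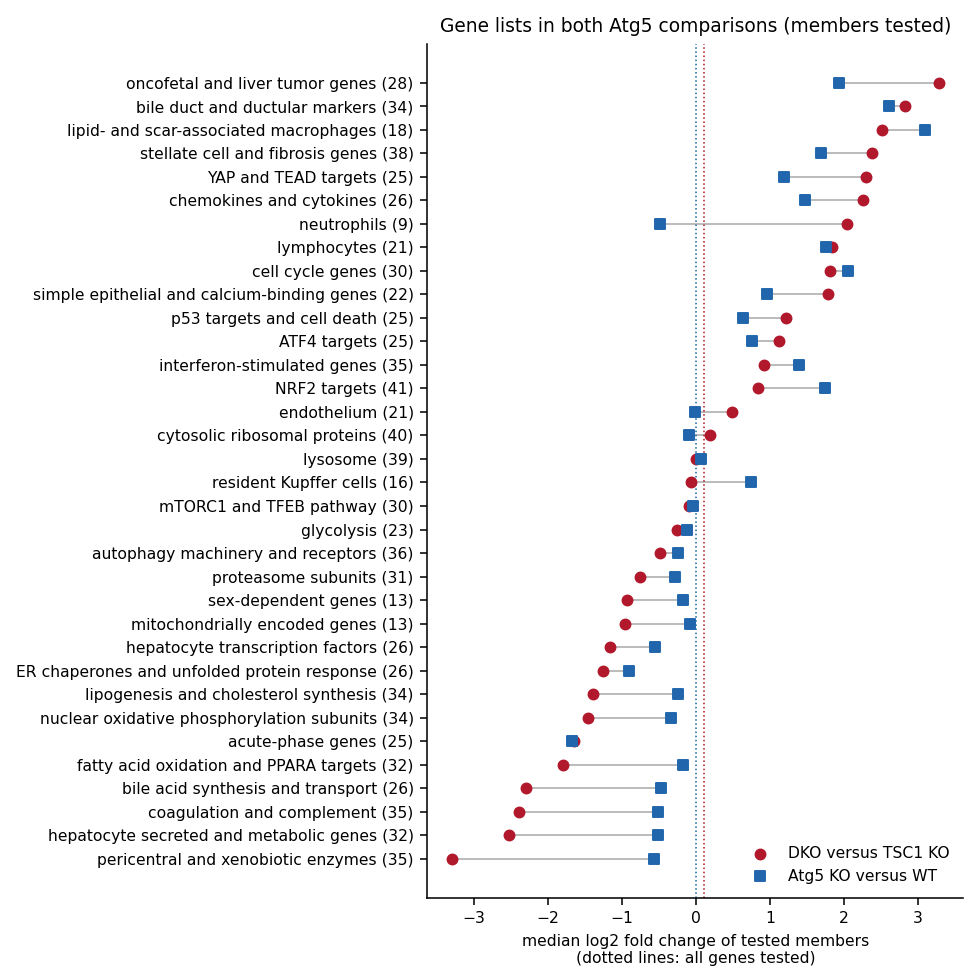
Median log2 fold change of the tested members of 34 gene lists in DKO versus TSC1 KO (circles) and Atg5 KO versus WT (squares); dotted lines mark the medians of all genes, 0.10 and 0.00. The 4 lowest lists, all of hepatocyte products, had medians of -3.31 to -2.30 in DKO versus TSC1 KO and -0.57 to -0.47 in Atg5 KO versus WT, whereas the ductular list had 2.83 and 2.60.

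NRF2 targets behaved otherwise. These genes make glutathione, conjugate and export toxic compounds, and regenerate NADPH. Of 41 tested, 21 were higher and 7 lower in DKO than in TSC1 KO (median 0.83), and 32 were higher and 0 lower in Atg5 KO than in WT (median 1.75). With total counts alone the first comparison had 33 higher and 3 lower (median 1.69) and the second 38 higher and 0 lower (median 2.14). The interaction was called negative for 22 and positive for 2 (1 in most fits that left out 1 library), and with total counts alone for 11 and 3. The antioxidant enzyme Nqo1, chosen after its values were seen as the best-known target, had 79.2, 105, 80.7 and 57.4 CPM in DKO and 6.89, 8.25, 8.51 and 9.36 CPM in TSC1 KO (3.28 ± 0.39, adjusted p = 2.6e-07). Nqo1 had 114, 49.2, 140.3 and 105 CPM in Atg5 KO and 5.45, 5.08, 4.87 and 5.72 CPM in WT (4.27 ± 0.42, adjusted p = 4.28e-07). Atg5 KO library 2 was the lowest of its group and remained above every WT library. The cystine importer Slc7a11, which feeds glutathione synthesis, had 122, 228, 137 and 55.1 CPM in DKO and 0.875, 0.474, 0.2899 and 0.887 CPM in TSC1 KO (7.74 ± 0.75). Slc7a11 had 209.7, 36.4, 222 and 272 CPM in Atg5 KO and 0.454, 0, 0.212 and 0.365 CPM in WT (9.44 ± 0.85). Both rises were without overlap, and the difference between them was not called (adjusted p = 0.398).

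For the glutathione enzymes Gstm1, Gstm4 and Gpx2 the interaction was called. Gstm1, an abundant glutathione transferase, had 4296, 6204, 4436 and 3693 CPM in DKO and 2272, 2781, 2111 and 2765 CPM in TSC1 KO (0.91 ± 0.32, adjusted p = 0.017). Gstm1 had 8795, 5046, 12040 and 10510 CPM in Atg5 KO and 1265, 1159, 1751 and 1046 CPM in WT (2.80 ± 0.34, adjusted p = 3.5e-06). Its interaction was -1.89 ± 0.46 (adjusted p = 0.00254), and its call in DKO versus TSC1 KO was lost without DKO library 2 or TSC1 KO library 1 or 3 (adjusted p 0.0585 to 0.0698). Gstm4, picked after its values were seen, had 65.8, 110.4, 54.1 and 29.1 CPM in DKO and 136, 111, 99.6 and 115 CPM in TSC1 KO (-0.83 ± 0.33, adjusted p = 0.0285). Gstm4 had 427, 226, 582 and 395 CPM in Atg5 KO and 88.4, 77.3, 75.7 and 45.8 CPM in WT (2.50 ± 0.34, adjusted p = 1.52e-05). The DKO and TSC1 KO libraries of Gstm4 overlapped, its call was lost without DKO library 3 or 4 or TSC1 KO library 1 (adjusted p 0.0503 to 0.0905), and with total counts alone its change was 0.03; the Gstm genes are close copies that can share reads. The interaction of Gstm4 was -3.34 ± 0.47 (adjusted p = 1.28e-05). Gpx2, a glutathione peroxidase also picked after its values were seen, averaged 46.4 ± 10.5 CPM in DKO and 0.761 ± 0.355 CPM in TSC1 KO (5.89 ± 0.61). Gpx2 averaged 75.6 ± 43.04 CPM in Atg5 KO and 0.0265 ± 0.0529 CPM in WT (interaction -5.04 ± 1.74, adjusted p = 0.029). That interaction was not called without TSC1 KO library 3 or any 1 WT library (adjusted p up to 0.0671).

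The NRF2 targets Abcc4 and G6pdx were higher in both comparisons. The exporter Abcc4 had 148, 192, 224 and 148 CPM in DKO and 4.37, 9.01, 4.83 and 5.71 CPM in TSC1 KO (4.89 ± 0.40). Abcc4 had 184, 63.4, 221 and 151 CPM in Atg5 KO and 2.84, 1.62, 2.54 and 1.46 CPM in WT (6.18 ± 0.45). Its interaction was not called (adjusted p = 0.0813), but was by DESeq2 (adjusted p = 0.0396) and without Atg5 KO library 2 (adjusted p = 0.015). G6pdx, which supplies NADPH through the pentose phosphate pathway, had 91.3, 119, 107 and 95.7 CPM in DKO and 10.4, 9.77, 13.7 and 11.2 CPM in TSC1 KO (3.19 ± 0.30). G6pdx had 26.5, 11.1, 33.4 and 25.1 CPM in Atg5 KO and 6.92, 5.198, 4.55 and 4.14 CPM in WT (2.21 ± 0.32). Its interaction was not called (adjusted p = 0.0781), but was without Atg5 KO library 3 (adjusted p = 0.0405) and when scaled by total counts only (adjusted p = 0.0184). The ferritin heavy chain Fth1 averaged 4137 ± 923 CPM in DKO and 3158 ± 559 CPM in TSC1 KO (adjusted p = 0.0878), a change that was called with no filter on low counts (0.46, adjusted p = 0.0372) and when scaled by total counts only (1.25, adjusted p = 5.1e-06). Fth1 averaged 2836 ± 604 CPM in Atg5 KO and 1950 ± 249.8 CPM in WT (0.54 ± 0.20, adjusted p = 0.0432, lost without Atg5 KO library 3 or 4 or WT library 1, 2 or 3 with adjusted p up to 0.134). The light chain Ftl1, picked after its values were seen, averaged 531 ± 232 CPM in DKO and 1818 ± 340.0 CPM in TSC1 KO (-1.78 ± 0.25, adjusted p = 1.9e-06).

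**Figure D3:**
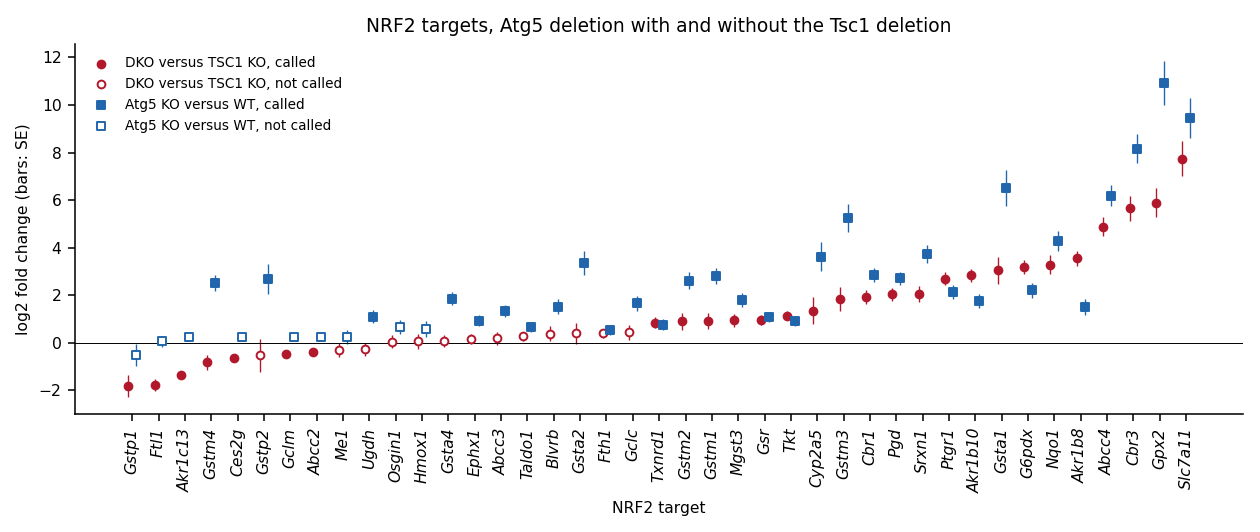
Log2 fold change with SE of the 41 tested NRF2 targets in DKO versus TSC1 KO (circles) and Atg5 KO versus WT (squares), ordered by the first; filled symbols passed the test. In Atg5 KO versus WT 32 were called higher and 0 lower, and in DKO versus TSC1 KO 21 higher and 7 lower (33 and 3 with total counts alone).

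The antioxidant response element, the NRF2 binding motif, was searched in the same windows as TGACNNNGC on both strands. It was found in 9 of the 36 NRF2 targets with a window and in 14% of all genes with one; it shares the letters TGA with the AP-1 motif TGANTCA, which was found in 5 of the 36 and in 8.97% of all genes. Windows of 2 members that rose without overlap in both comparisons (Abcc4 and G6pdx) and of 2 picked after their values were seen (Txnrd1 and Gclm) are shown; capitals mark the motif, which lies on the opposite strand in all 4.
Abcc4 chr14:118706211-118706269, minus strand: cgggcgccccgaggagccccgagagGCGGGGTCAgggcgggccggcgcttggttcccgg
G6pdx chrX:74428904-74428962, minus strand: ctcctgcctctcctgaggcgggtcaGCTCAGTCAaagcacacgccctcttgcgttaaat
Txnrd1 chr10:82859089-82859147, plus strand: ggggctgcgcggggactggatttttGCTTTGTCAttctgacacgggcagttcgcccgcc
Gclm chr3:122245398-122245456, plus strand: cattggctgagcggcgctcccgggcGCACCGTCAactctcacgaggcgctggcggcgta
Thioredoxin reductase Txnrd1 averaged 285 ± 60.04 CPM in DKO and 160.0 ± 13.3 CPM in TSC1 KO (0.83 ± 0.23). Txnrd1 averaged 379 ± 118 CPM in Atg5 KO and 226 ± 1.83 CPM in WT (0.74 ± 0.23), a call lost without Atg5 KO library 1 (adjusted p = 0.0518) or 3 (adjusted p = 0.0815). Gclm, the regulatory subunit for glutathione synthesis, averaged 199.5 ± 27.5 CPM in DKO and 279 ± 14.6 CPM in TSC1 KO (-0.48 ± 0.13, adjusted p = 0.00267, and 0.38 with total counts alone). Gclm averaged 362 ± 45.2 CPM in Atg5 KO and 308 ± 26.7 CPM in WT (0.23, adjusted p = 0.19; 0.61 and called when scaled by total counts only).

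Among autophagy genes 21 of 36 were lower and 5 higher in DKO, with a median of -0.49, but with total counts alone 21 were higher and 4 lower and the median was 0.37. Atg3, which works beside Atg5 in the conjugation of LC3, averaged 36.9 ± 3.16 CPM in DKO and 111 ± 9.55 CPM in TSC1 KO (-1.59 ± 0.11). Atg101, of the initiating kinase complex, averaged 20.4 ± 5.71 CPM in DKO and 57.2 ± 5.35 CPM in TSC1 KO (-1.49 ± 0.18). The LC3 relative Gabarapl1 averaged 406 ± 36.97 CPM in DKO and 1104 ± 171 CPM in TSC1 KO (-1.45 ± 0.20). The 5 higher ones, listed after their values were seen, were Ambra1, Wipi1, Map1lc3b, Calcoco1 and Fundc1. Lysosomal genes were split, 12 of 39 higher and 15 lower, and with total counts alone 33 higher and 0 lower. The split lies near that of all genes, 36.6% higher and 30.0% lower. The cathepsin Ctss, a protease of macrophages, averaged 129.7 ± 22.2 CPM in DKO and 18.2 ± 4.99 CPM in TSC1 KO (2.83 ± 0.30). The membrane protein Cd63 averaged 208 ± 38.7 CPM in DKO and 14.9 ± 2.604 CPM in TSC1 KO (3.8 ± 0.28). The ceramidase Asah1 averaged 132 ± 21 CPM in DKO and 39.99 ± 7.09 CPM in TSC1 KO (1.72 ± 0.14). Cathepsin L (Ctsl) averaged 1106 ± 174 CPM in DKO and 1639 ± 320.4 CPM in TSC1 KO (-0.57 ± 0.18, and 0.29 with total counts alone). Of the macrophage markers given further on, some rose with Ctss and others fell, and their part in the change of Ctss was not tested.

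In the mTORC1 and TFEB list 7 of 30 genes were higher (4 without TSC1 KO library 3) and 11 lower in DKO. Over all genes 36.6% were higher and 30.0% lower. With total counts alone 23 of the list were higher and 1 lower. The TFEB target Rragd, a GTPase that brings mTORC1 to the lysosome, had 142, 172, 178 and 167 CPM in DKO and 30.6, 53.3, 41.4 and 36.5 CPM in TSC1 KO (2.03 ± 0.31). Rragd had 59.2, 15.2, 55.6 and 67.1 CPM in Atg5 KO and 1.13, 3.12, 1.59 and 1.096 CPM in WT (4.82 ± 0.40). It rose in both, less with the Tsc1 deletion (interaction -2.79 ± 0.49, adjusted p = 0.000161), and TSC1 KO libraries already lay far above WT ones. Lamtor4, of the Ragulator complex, averaged 35.6 ± 11.4 CPM in DKO and 77.3 ± 14.9 CPM in TSC1 KO (-1.12 ± 0.19; not called with total counts alone). The mTOR inhibitor Deptor averaged 153 ± 2.37 CPM in DKO and 469 ± 17.2 CPM in TSC1 KO (-1.62 ± 0.14).

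Targets of the stress factor ATF4 were higher in 15 of 25 and lower in 4. Their summed level did not rise, at 1180 to 1655 CPM in DKO and 1580 to 2330 CPM in TSC1 KO. Phgdh, the first enzyme of serine synthesis, had 45.8, 42.5, 48.7 and 32.99 CPM in DKO and 1.203, 1.04, 1.84 and 0.591 CPM in TSC1 KO (5.17 ± 0.43, adjusted p = 7.4e-10). Phgdh had 1.37, 0.989, 0.557 and 0.243 CPM in Atg5 KO and 0.3403, 0.231, 0.106 and 0.244 CPM in WT (1.75 ± 0.72, adjusted p = 0.0714). That change was called by DESeq2 (0.0325), with total counts alone (0.035), without Atg5 KO library 4 (0.0375) and without Nrf2 TKO library 2 (0.0419). The difference between the 2 effects on Phgdh was called (interaction 3.42 ± 1.06, adjusted p = 0.0151), but not without WT library 1 (adjusted p = 0.0704). Psat1, the next enzyme, averaged 35.4 ± 7.39 CPM in DKO and 2.52 ± 1.11 CPM in TSC1 KO (3.8 ± 0.32). Psat1 averaged 2.68 ± 0.959 CPM in Atg5 KO and 0.968 ± 0.299 CPM in WT (1.47 ± 0.39; interaction 2.33 ± 0.53, adjusted p = 0.00142). The stress-induced chromatin protein Nupr1 had 393, 215, 264 and 442 CPM in DKO and 15.4, 31.8, 20.1 and 17.7 CPM in TSC1 KO (3.95 ± 0.35). Nupr1 had 1.91, 2.25, 3.11 and 3.57 CPM in Atg5 KO and 1.702, 1.502, 1.16 and 1.096 CPM in WT (0.98, adjusted p = 0.138; interaction 2.97 ± 0.62, adjusted p = 0.000832). The 4 that fell were Atf4 itself, Atf5 (-1.77 ± 0.28), Shmt2 and the cysteine-making enzyme Cth, which averaged 85.8 ± 38.4 CPM in DKO and 617 ± 167 CPM in TSC1 KO (-2.84 ± 0.41).

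Endoplasmic reticulum chaperones and unfolded-protein genes were lower in DKO in 21 of 26 and higher in 1, Eif2ak3, and lower in Atg5 KO than in WT in 21 of 26. Scaled by total counts only, 12 were lower and 3 higher in DKO (median -0.40 in place of -1.27). The chaperone BiP (Hspa5) had 271, 339, 252 and 266 CPM in DKO and 1208, 910.3, 977 and 889 CPM in TSC1 KO (-1.82 ± 0.27). Hspa5 had 1046, 1468, 1123 and 651 CPM in Atg5 KO and 2696, 2668, 3299 and 1575 CPM in WT (-1.26 ± 0.26), with no overlap in either pair. Hsp90b1 averaged 202 ± 23.1 CPM in DKO and 799 ± 116 CPM in TSC1 KO (-1.98 ± 0.20), and calreticulin (Calr) 312 ± 44.1 CPM in DKO and 1094 ± 102 CPM in TSC1 KO (-1.81 ± 0.19). Proteasome subunits were lower in 30 of 31 and higher in 1, Psmd8, with a median of -0.76; with total counts alone 9 were higher and 4 lower and the median was 0.10. Psmb7 averaged 31.8 ± 1.695 CPM in DKO and 73.1 ± 3.08 CPM in TSC1 KO. Psmd6 averaged 45.9 ± 3.597 CPM in DKO and 96.4 ± 6.98 CPM in TSC1 KO. Of 40 cytosolic ribosomal protein genes 12 were higher and 2 lower (1 without DKO library 2, 3 or 4 or TSC1 KO library 1), with changes from -0.54 to 0.78; Rpl5 averaged 536 ± 28.4 CPM in DKO and 352 ± 19.7 CPM in TSC1 KO (0.61 ± 0.13). Rplp0 averaged 752 ± 35.4 CPM in DKO and 536 ± 23.5 CPM in TSC1 KO (0.49 ± 0.13). The 12 higher and 2 lower of 40 stand beside 36.6% higher and 30.0% lower over all genes. With total counts alone 38 of the 40 were higher.

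Genes of stellate cells and scar matrix were higher in DKO in 31 of 38 and lower in 2, and higher in Atg5 KO than in WT in 30 and lower in 1, Fn1. Their sums overlapped in the second pair, at 1848 to 2428 CPM in Atg5 KO and 1843 to 2945 CPM in WT. Collagen I (Col1a1), a defining stellate marker, had 96.9, 112, 138 and 119 CPM in DKO and 8.86, 15.8, 18.5 and 14.97 CPM in TSC1 KO (3.0 ± 0.34, adjusted p = 1.33e-07). Col1a1 had 91.7, 51.4, 47.1 and 90.4 CPM in Atg5 KO and 7.49, 6.24, 9.42 and 10.2 CPM in WT (3.07 ± 0.35, adjusted p = 2.7e-06). Of the other defining markers, Dcn ranged from 139 to 282 CPM in DKO and 114 to 175 CPM in TSC1 KO. Des ranged from 6.36 to 7.90 CPM in DKO and 4.14 to 4.83 CPM in TSC1 KO. Lrat, of quiescent stellate cells, ranged from 4.27 to 5.89 CPM in DKO and 5.60 to 12.3 CPM in TSC1 KO. Timp1, an inhibitor of matrix proteases, averaged 7.22 ± 1.85 CPM in DKO and 0.273 ± 0.0881 CPM in TSC1 KO (4.67 ± 0.40). Timp1 averaged 2.66 ± 1.05 CPM in Atg5 KO and 0.226 ± 0.0897 CPM in WT (3.49 ± 0.44). The stellate-cell mitogen Pdgfb averaged 20.8 ± 4.22 CPM in DKO and 1.83 ± 0.305 CPM in TSC1 KO (3.49 ± 0.25). Fibronectin (Fn1), which hepatocytes also secrete, averaged 938 ± 115 CPM in DKO and 1104 ± 115 CPM in TSC1 KO and was not called (adjusted p = 0.35; 0.63 and called with total counts alone). Fn1 averaged 1015 ± 142 CPM in Atg5 KO and 2115 ± 560.4 CPM in WT (-1.06 ± 0.22). The 2 that fell were Reln and Col5a2, described below.

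Macrophage gene sets moved in different ways. Of 18 genes of lipid- and scar-associated macrophages 14 were higher and 3, Fabp5, Plin2 and Apoe, lower; hepatocytes express these 3 too, and Apoe averaged 12470 ± 1953 CPM in DKO and 34570 ± 4034 CPM in TSC1 KO (-1.47 ± 0.17). Gpnmb, a marker of such macrophages, had 44.05, 110.4, 46.8 and 32.7 CPM in DKO and 0.219, 0.474, 0.2899 and 0.295 CPM in TSC1 KO (7.46 ± 0.48). Gpnmb had 13.6, 11.6, 17.2 and 20.4 CPM in Atg5 KO and 0.113, 0.116, 0.106 and 0.244 CPM in WT (6.69 ± 0.57), and a difference between the effects was not called (adjusted p = 0.684). Of 16 genes of resident Kupffer cells 5 were higher and 4 lower (7 and 1 with total counts alone), near the shares over all genes (36.6% higher, 30.0% lower). The complement subunit C1qb had 121, 124, 107 and 74.8 CPM in DKO and 8.75, 10.3, 14.01 and 19.01 CPM in TSC1 KO (3.03 ± 0.29). C1qb had 103, 46.5, 115 and 142 CPM in Atg5 KO and 41.5, 44.8, 34.9 and 35.7 CPM in WT (1.38 ± 0.27), and Csf1r, the survival receptor of macrophages, averaged 104 ± 7.04 CPM in DKO and 15.7 ± 3.58 CPM in TSC1 KO (2.72 ± 0.26). The defining Kupffer markers parted. Adgre1 ranged from 9.42 to 18.8 CPM in DKO and 1.31 to 3.25 CPM in TSC1 KO, higher in DKO without overlap. Vsig4 overlapped, at 1.25 to 8.78 CPM in DKO and 1.42 to 6.40 CPM in TSC1 KO. Clec4f had 6.63, 13.1, 1.04 and 2.91 CPM in DKO and 17.8, 4.84, 14.1 and 32.7 CPM in TSC1 KO, so its libraries overlapped. Its change of -1.57 ± 0.57 (adjusted p = 0.0214) lost its call without DKO library 3 or 4 or TSC1 KO library 4 (adjusted p up to 0.103) and with total counts alone. The iron exporter Slc40a1 averaged 93.5 ± 8.87 CPM in DKO and 134 ± 11.1 CPM in TSC1 KO (-0.51 ± 0.20, adjusted p = 0.0306, not called without DKO library 1, and 0.35 with total counts alone).

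Lymphocyte genes were higher in 14 of 21 and lower in 3, among them Zap70 and Ighm. Of the defining markers, Cd3e ranged from 1.25 to 2.65 CPM in DKO and 0.29 to 0.759 CPM in TSC1 KO. Cd79a overlapped, at 0.648 to 1.37 CPM in DKO and 0.296 to 1.42 CPM in TSC1 KO. The T-cell kinase Lck averaged 6.16 ± 1.01 CPM in DKO and 0.941 ± 0.275 CPM in TSC1 KO (2.69 ± 0.35). Immunoglobulin chains parted: the kappa chain Igkc had 292, 174, 106 and 378 CPM in DKO and 8.96, 26.2, 24.8 and 12.5 CPM in TSC1 KO (3.71 ± 0.62), while the IgM heavy chain Ighm had 8.63, 9.61, 10.4 and 6.22 CPM in DKO and 88.99, 8.25, 43.1 and 43.2 CPM in TSC1 KO (-2.39 ± 0.58, adjusted p = 0.00118), with TSC1 KO library 2 inside the DKO range. In Atg5 KO Ighm had 70.7, 8.63, 91.6 and 64.9 CPM, against 8.73, 8.09, 8.89 and 9.38 CPM in WT (2.75 ± 0.60), with library 2 again inside the range of WT. Neutrophil genes, at low levels throughout, were higher in 6 of 9 in DKO and in 0 of 9 in Atg5 KO versus WT, where 0 were also lower. Retnlg had 1.2, 2.18, 0.417 and 1.003 CPM in DKO and 0.219, 0.0949, 0 and 0 CPM in TSC1 KO, 86 and 3 counts over each group, which is a ratio of 15.6 (95% exact counting interval 5.18 to 77.4, counting error only). Its interaction was 5.34 ± 1.49 (adjusted p = 0.00749), and the neutrophil interactions called, 6 of 9, became 2 without WT library 1. Mmp8 averaged 1.48 ± 0.476 CPM in DKO and 0.149 ± 0.0541 CPM in TSC1 KO, and the defining marker Ly6g had at most 1 count in any of the 16 libraries.

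Endothelial genes were split, 10 of 21 higher and 5 lower in DKO (15 and 2 with total counts alone). These counts lie near the shares over all genes, 36.6% higher and 30.0% lower in DKO. The defining marker Pecam1 ranged from 17.4 to 23.9 CPM in DKO and 6.67 to 10.3 CPM in TSC1 KO. Stab2, a scavenger receptor of liver sinusoids, averaged 15.4 ± 2.41 CPM in DKO and 59.5 ± 6.04 CPM in TSC1 KO (-1.95 ± 0.19). Wnt2, a central-vein and sinusoid signal, averaged 0.289 ± 0.0724 CPM in DKO and 1.59 ± 0.572 CPM in TSC1 KO (-2.42 ± 0.47), and the other 3 that fell were Clec4g, Oit3 and Rspo3. Among the higher ones, von Willebrand factor (Vwf) was at 25.01 ± 4.64 CPM in DKO and 4.79 ± 2.46 CPM in TSC1 KO (2.39 ± 0.38) and Cd34 at 29.4 ± 5.72 CPM in DKO and 3.49 ± 0.917 CPM in TSC1 KO (3.06 ± 0.46). Without the Tsc1 deletion 3 of the 21 were higher (1 without Atg5 KO library 4) and 0 lower (1 without Atg5 KO library 2 or WT library 4) in Atg5 KO.

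The summed levels of these marker lists did not all go the way of their counts. Stellate and scar genes summed to 2737 to 3288 CPM in DKO and 1658 to 2316 CPM in TSC1 KO, Kupffer genes to 467 to 673 CPM in DKO and 352 to 431 CPM in TSC1 KO, and endothelial genes to 352 to 394 CPM in DKO and 229 to 297 CPM in TSC1 KO. Lymphocyte genes summed to 184 to 505 CPM in DKO and 95.4 to 137 CPM in TSC1 KO, and neutrophil genes to 12.3 to 26.2 CPM in DKO and 2.42 to 5.02 CPM in TSC1 KO. These 5 sums were higher in DKO without overlap. Igkc alone made up most of each DKO lymphocyte sum, and the lymphocyte sums without Igkc overlapped. The genes of lipid- and scar-associated macrophages summed the other way, to 17470 to 22400 CPM in DKO and 33690 to 42020 CPM in TSC1 KO, and so did the chemokines and cytokines described below, at 390 to 542 CPM in DKO and 580 to 692 CPM in TSC1 KO. Most of the macrophage sum was Apoe, which hepatocytes also express, with 40560 of the 42020 CPM in TSC1 KO library 1. Of the 18 macrophage genes 14 were higher in DKO. The part of a changed cell makeup in any single gene's change was not tested. Genes of neighbouring tissues were near absent but for those that liver also expresses, with 1 of 12 pancreatic and 2 of 8 adipocyte genes passing the filter on low counts.

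Interferon-stimulated genes were higher in 19 of 35 and lower in 4 in DKO, and higher in 26 and lower in 1, Stat2, in Atg5 KO (0 lower without Atg5 KO library 1 or WT library 4). In DKO 30 were higher and 1 lower with total counts alone (median 1.77 in place of 0.91). The interaction was called negative for 13 and positive for 0, and with total counts alone for 8 and 3. The antiviral enzyme Rsad2 had 95.01, 59.5, 46.3 and 102 CPM in DKO and 12.7, 20.2, 14.5 and 13.7 CPM in TSC1 KO (2.31 ± 0.40). Rsad2 had 696, 232, 1082 and 699 CPM in Atg5 KO and 11.1, 12.01, 11.2 and 3.78 CPM in WT (6.15 ± 0.47). Ifit2, which binds viral RNA, had 65.7, 61.4, 92.6 and 117 CPM in DKO and 3.28, 5.41, 5.702 and 5.12 CPM in TSC1 KO (4.10 ± 0.45). Ifit2 had 30.9, 11.1, 38.5 and 54.5 CPM in Atg5 KO and 3.403, 3.93, 2.75 and 1.096 CPM in WT (3.58 ± 0.47; interaction adjusted p = 0.57). Rsad2 thus rose in both comparisons without overlap, as did Ifit2. The tetherin gene Bst2 averaged 97.7 ± 27.5 CPM in DKO and 259 ± 37.9 CPM in TSC1 KO (-1.40 ± 0.19), and Igtp and Psmb9 were also lower in DKO.

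Chemokines and cytokines were higher in 20 of 26 and lower in 3, Ccl9, Cxcl9 and Cxcl12. The monocyte attractant Ccl2 had 14.1, 82.9, 61.6 and 73.7 CPM in DKO and 0.547, 0.379, 0.2899 and 0.493 CPM in TSC1 KO (7.07 ± 0.74). Ccl2 had 17.4, 5.03, 18.4 and 19.8 CPM in Atg5 KO and 4.76, 3.003, 6.78 and 0.487 CPM in WT (1.99 ± 0.56). Cxcl16 averaged 87.4 ± 9.88 CPM in DKO and 9.97 ± 0.517 CPM in TSC1 KO (3.13 ± 0.25), while Ccl9 averaged 34.7 ± 9.68 CPM in DKO and 150.2 ± 19.04 CPM in TSC1 KO (-2.11 ± 0.23). In Atg5 KO 14 of the 26 were higher and 1, Cxcl1, lower (2 lower without Atg5 KO library 2 or 3, and 8 higher where only the groups compared were fitted).

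Cell cycle genes rose in both settings, 25 of 30 higher and 0 lower in DKO and 25 of 30 higher and 0 lower in Atg5 KO. The mitotic driver Foxm1 averaged 4.82 ± 0.649 CPM in DKO and 0.491 ± 0.247 CPM in TSC1 KO (3.25 ± 0.38), and cyclin D1 (Ccnd1) 80.4 ± 26.8 CPM in DKO and 15.9 ± 4.52 CPM in TSC1 KO (2.33 ± 0.30). The spindle checkpoint kinase Bub1b had 5.43, 6.54, 5.16 and 3.51 CPM in DKO and 0.656, 0.474, 0.8698 and 0.197 CPM in TSC1 KO (3.21 ± 0.41). Bub1b had 2.52, 0.989, 4.3 and 2.76 CPM in Atg5 KO and 0.681, 0.231, 0.635 and 0.609 CPM in WT (2.27 ± 0.43). Among targets of the tumour suppressor p53 and cell-death genes 17 of 25 were higher and 2, Fas and Ei24, lower in DKO, and 10 were higher and 0 lower in Atg5 KO. Scaled by total counts only, 22 were higher and 0 lower in DKO, and 20 higher and 0 lower in Atg5 KO. Pmaip1, the death-promoting BH3 protein NOXA, had 26.5, 26.4, 26.9 and 41.01 CPM in DKO and 0.328, 0.664, 0.483 and 1.48 CPM in TSC1 KO (5.32 ± 0.38). Pmaip1 had 1.83, 0.989, 1.99 and 2.19 CPM in Atg5 KO and 0.681, 0.924, 1.06 and 0.365 CPM in WT (1.19 ± 0.43, adjusted p = 0.0392). Its rise was larger with the Tsc1 deletion (interaction 4.13 ± 0.61, adjusted p = 1.71e-05), and its call in Atg5 KO was lost in 6 of the 8 fits that left out 1 library. Phlda3, a p53-induced inhibitor of AKT, averaged 28.6 ± 5.11 CPM in DKO and 1.505 ± 0.283 CPM in TSC1 KO (4.23 ± 0.36). Zmat3 averaged 65.4 ± 9.87 CPM in DKO and 12.2 ± 1.53 CPM in TSC1 KO (2.42 ± 0.24).

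Several of the largest rises in DKO were genes that TSC1 KO livers hardly expressed. Apela, a peptide hormone of the embryo, had 10.7, 8.31, 15.1 and 6.12 CPM in DKO and 0.109, 0, 0 and 0 CPM in TSC1 KO, 741 counts against 1, a ratio of 404.5 (95% exact counting interval 72.4 to 16000). The ubiquitin hydrolase Uchl1 had 741 counts in DKO and 2 in TSC1 KO (ratio 202, 55.8 to 1673), the actin regulator Coro6 876 and 2 (239, 66.0 to 1977), and the exchange factor Rasgrf1 904 and 2 (247, 68.1 to 2041). Without the Tsc1 deletion Apela also rose, with 2987 counts in Atg5 KO and 0 in WT, at least 711.8-fold (floor of 3 counts). Coro6 had 261 counts in Atg5 KO and 3 in WT (ratio 62.2, 21.05 to 303.6). Uchl1 had 13 and 0 (at least 3.1-fold) and Rasgrf1 5 and 0 (at least 1.19-fold). The matricellular protein Ccn5 averaged 44.05 ± 21.9 CPM in DKO and 0.175 ± 0.0955 CPM in TSC1 KO (7.90 ± 0.80). The calcium-binding S100b averaged 36.2 ± 9.82 CPM in DKO and 0.172 ± 0.0874 CPM in TSC1 KO (7.62 ± 0.50). S100b had 20 counts in Atg5 KO and 3 in WT (ratio 4.77, 1.41 to 25.05). Igf2, the fetal growth factor whose gene neighbours H19 and which was picked after its values were seen, had 24.97, 12.8, 46.1 and 11.4 CPM in DKO and 0.328, 0.284, 0.2899 and 0.0985 CPM in TSC1 KO (6.52 ± 0.92).

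The largest falls were in the major urinary protein (Mup) genes, pheromone carriers made by male mouse liver. Mup3 had 77.8, 4.36, 6.88 and 12.7 CPM in DKO and 10150, 7219, 10630 and 10330 CPM in TSC1 KO (-8.56 ± 0.90), and Mup6 3.48, 0.05895, 0.208 and 0.551 CPM in DKO and 868, 294, 399 and 408 CPM in TSC1 KO (-8.85 ± 1.01). DKO library 1 held most of what remained for both. Mup4 had 0 counts in DKO and 232 in TSC1 KO, at least 142-fold lower taking 3 counts over the group as the floor, and the pseudogenes Mup-ps12 and Mup-ps14 had 0 counts in DKO and 410 and 220 in TSC1 KO, at least 250.3-fold and 134-fold lower. Mup14 (-8.99 ± 1.42) and Mup-ps13 (-8.77 ± 1.09) fell likewise, but Mup genes are near-identical copies, so how their reads were divided among them is uncertain. Other male-biased or hepatocyte genes fell as far: the sulfotransferase Sult2a8 averaged 2.75 ± 2.85 CPM in DKO and 1138 ± 180.0 CPM in TSC1 KO (-8.70 ± 0.71). The fatty acid elongase Elovl3 averaged 0.405 ± 0.497 CPM in DKO and 192 ± 57.7 CPM in TSC1 KO (-8.88 ± 1.61). The carboxylesterase Ces3a averaged 3.71 ± 4.49 CPM in DKO and 1654 ± 224 CPM in TSC1 KO (-8.80 ± 0.81). In the list of sex-dependent genes 6 of 13 were lower and 1 higher (0 by DESeq2, 2 without Nrf2 TKO library 2) in DKO, and 0 were called in Atg5 KO versus WT by edgeR (2 lower where only the groups compared were fitted). The ammonium transporter Rhbg of pericentral hepatocytes had 0 counts in DKO and 166 in TSC1 KO, at least 101-fold lower.

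**Figure D4:**
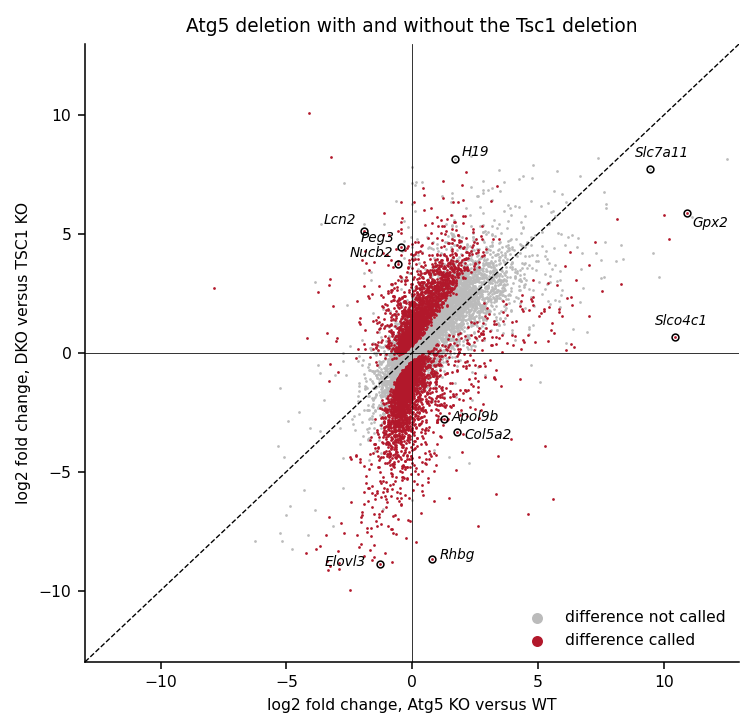
Log2 fold change in DKO versus TSC1 KO (vertical) against Atg5 KO versus WT (horizontal) for 15851 genes; red points have a called interaction (5517 genes), and circles mark named genes. Red points spread up and down the vertical axis near a horizontal value of 0. Of the red points, 3650 were genes called with the Tsc1 deletion and not without it.

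The Atg5 deletion changed more genes with the Tsc1 deletion than without it, and most of what it changed without it moved the same way with it. Of the 2944 genes higher in Atg5 KO, 2491 were also higher in DKO, which is 84.6% of the 2944 and 42.9% of the 5807 higher in DKO. Of the 1794 lower in Atg5 KO 1338 were lower in DKO, 74.6% of the 1794 and 28.1% of the 4762. The 2 comparisons have no library in common, and these shares stand beside a background of 36.6% higher and 30.0% lower in DKO. The genes higher in Atg5 KO had a median log2 fold change of 1.63 there, by which they were chosen, and of 1.99 in DKO versus TSC1 KO. The 1794 lower genes had -0.55 and -0.84.

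Tests of the difference sorted the genes further. A total of 3650 genes were called in DKO versus TSC1 KO, not in Atg5 KO versus WT, and with a called difference, 1600 of them higher and 2050 lower in DKO; the hepatocyte genes Alb, Fabp1 and Sdhb are among them. For 2909 others called with the Tsc1 deletion alone the difference was not called, so no difference between settings was shown for them. Same-direction changes were larger with the Tsc1 deletion for 1232 genes, such as Cyp2e1, Slc10a1 and Plg, and smaller for 75, such as Gstm1, Rragd and Rsad2. For 2522 that moved the same way, Spp1, Nqo1 and Col1a1 among them, no difference was called. That of Nqo1 was called where only the groups compared were fitted (-1.06, adjusted p = 0.0342).

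Opposite directions were called for 181 genes, 74 higher and 107 lower in DKO. Nucb2, a calcium-binding precursor of nesfatin, had 97.2, 85.2, 101 and 114 CPM in DKO and 6.67, 6.64, 8.698 and 8.18 CPM in TSC1 KO (3.72 ± 0.22). Nucb2 had 10.1, 6.11, 7.72 and 9.16 CPM in Atg5 KO and 10.1, 9.82, 9.95 and 19.9 CPM in WT (-0.58 ± 0.21, adjusted p = 0.0427). The fall in Atg5 KO was -0.23 and not called without WT library 4 and was not called without Atg5 KO library 2, 3 or 4 (adjusted p 0.0573 to 0.102), with no filter on low counts, where only the groups compared were fitted, or when scaled by total counts only (-0.18). The secreted protease-inhibitor-like Wfdc2 had 94.7, 62.1, 72.01 and 61.97 CPM in DKO and 30.5, 18.7, 22.8 and 29.8 CPM in TSC1 KO (1.52 ± 0.21). Wfdc2 had 3.13, 3.33, 2.87 and 2.76 CPM in Atg5 KO and 7.26, 6.35, 10.3 and 7.19 CPM in WT (-1.37 ± 0.25, adjusted p = 0.000294), with no overlap in either pair. The tight-junction gene Marveld3 (2.63 ± 0.28 in DKO, -0.85 ± 0.28 in Atg5 KO) and the metal reductase Steap2 (1.92 ± 0.19 in DKO, -0.55 ± 0.21 in Atg5 KO) showed the same signs, but their falls in Atg5 KO lost their calls in most fits that left out 1 library.

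The other direction held for Apol9b, an apolipoprotein L gene, with 50.7, 49.4, 30.9 and 24.4 CPM in DKO and 296, 223, 225 and 329 CPM in TSC1 KO (-2.79 ± 0.24). Apol9b had 234, 172, 319 and 264 CPM in Atg5 KO and 109, 95.9, 99.6 and 101 CPM in WT (1.29 ± 0.22, adjusted p = 0.000172). Its near-identical neighbour Apol9a moved alike (-2.51 ± 0.26 in DKO, 1.48 ± 0.25 in Atg5 KO), and the 2 can share reads. Olfm3 had 1.31, 1.83, 1.35 and 0.551 CPM in DKO and 9.18, 12.1, 10.6 and 9.95 CPM in TSC1 KO (-3.06 ± 0.32). Olfm3 had 12.4, 12.9, 14.97 and 10.3 CPM in Atg5 KO and 7.94, 6.93, 4.55 and 2.31 CPM in WT (1.22 ± 0.29). Fibrillar collagen Col5a2, picked after its values were seen because it left the other scar genes, had 38.7, 31.5, 35.3 and 42.5 CPM in DKO and 282, 672, 334 and 196 CPM in TSC1 KO (-3.33 ± 0.42, adjusted p = 5.42e-07). Col5a2 had 13.8, 19.5, 8.04 and 12.97 CPM in Atg5 KO and 5.11, 3.58, 3.81 and 3.41 CPM in WT (1.77 ± 0.45, adjusted p = 0.00521). Its TSC1 KO level was above all other groups, so DKO lay below TSC1 KO and yet above Atg5 KO and WT.

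**Figure D5:**
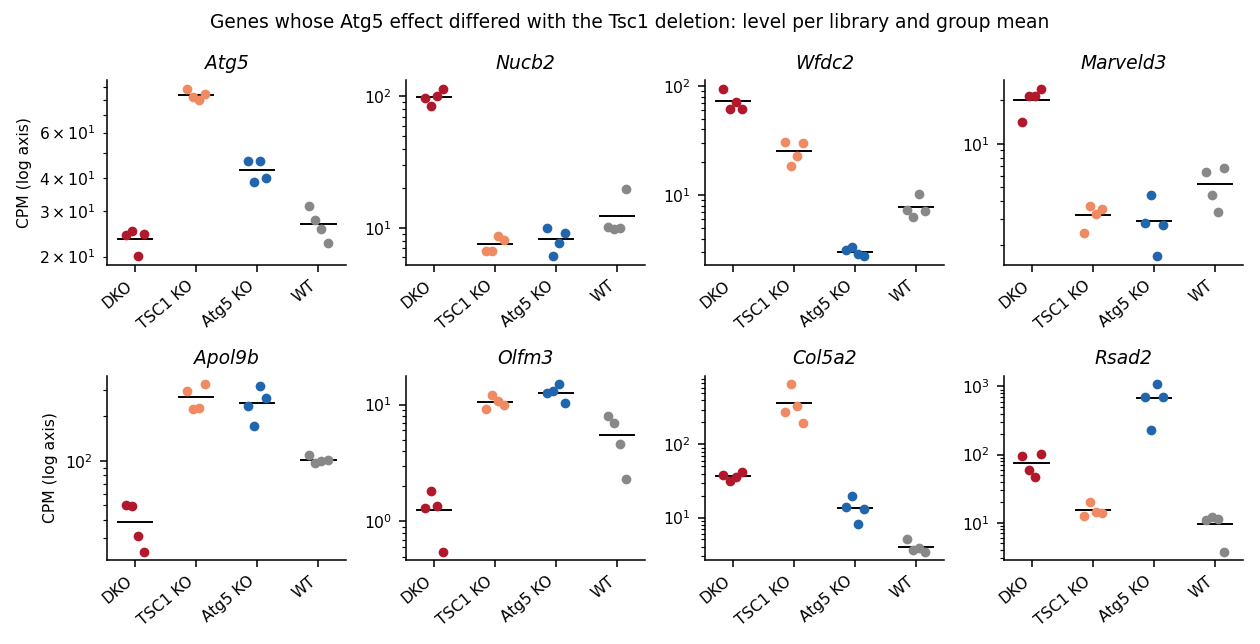
CPM per library on log axes for 8 genes whose Atg5 effect had a called difference, in DKO, TSC1 KO, Atg5 KO and WT livers; points are libraries and lines group means. Atg5, Apol9b, Olfm3 and Col5a2 lay lower in DKO than in TSC1 KO and higher in Atg5 KO than in WT, and Nucb2, Wfdc2 and Marveld3 the reverse, while Rsad2 was higher in both.

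Among the largest interactions several rested on the level in 1 group. The anion transporter Slco4c1 had 0.457, 0.5895, 0.417 and 0.1504 CPM in DKO and 0.437, 0.1897, 0.2899 and 0.0985 CPM in TSC1 KO and was not called there (adjusted p = 0.523). Slco4c1 had 10.98, 2.07, 28.1 and 15.8 CPM in Atg5 KO and 0 in all 4 WT libraries, at least 170.4-fold higher in Atg5 KO. The chitinase-like Chil3, a gene of activated macrophages, had 8.51, 5.07, 3.28 and 12.2 CPM in DKO and 0, 0, 0.0966 and 0.0985 CPM in TSC1 KO (541 counts against 2, ratio 148, 40.7 to 1222). Chil3 had 1.14, 0.0899, 0.796 and 1.14 CPM in Atg5 KO and 1.02, 0.346, 0.635 and 0.365 CPM in WT (interaction 6.50 ± 1.35). Lipocalin Lcn2, an acute-phase and injury protein, had 334, 343, 381 and 359 CPM in DKO and 5.904, 9.68, 8.21 and 16.6 CPM in TSC1 KO (5.13 ± 1.37, adjusted p = 0.00272). Lcn2 had 82.95, 15.6, 114 and 755 CPM in Atg5 KO and 469, 289.9, 21.1 and 2844 CPM in WT (interaction 7.04 ± 1.79, adjusted p = 0.00473). The WT libraries of Lcn2 span a wide range, with library 4 far above the others, and without it the interaction was 5.15. Metallothionein Mt2 had 94.03, 54.5, 66.9 and 65.7 CPM in DKO and 1.97, 15.1, 15.7 and 6.01 CPM in TSC1 KO (adjusted p = 0.062). That change was called by DESeq2 (0.0286), with only the groups compared (0.00227), with a replicate block (0.0407) and with total counts alone (0.0169). Mt2 had 8.92, 2.25, 11.5 and 66.7 CPM in Atg5 KO and 82.7, 38.8, 0.741 and 753 CPM in WT, and its interaction (6.14 ± 1.84, adjusted p = 0.0142) was not called without WT library 4 (3.63, adjusted p = 0.09). The cytochrome Cyp2c69, at 2.496, 16.5, 4.02 and 9.38 CPM in WT and at most 1.14 CPM in the other 3 groups, and the photoreceptor gene Pde6b, at 14.6, 10.7, 23.6 and 14.8 CPM in DKO and 0.109, 0.0949, 0.387 and 0 CPM in TSC1 KO (6.65 ± 0.63), also had called interactions (6.32 ± 1.96 and 6.18 ± 1.85). Wfdc12 was high in 1 group alone, at 10.2, 48.9, 13.1 and 20.2 CPM in TSC1 KO and at most 0.988 CPM in any library of DKO, Atg5 KO or WT (interaction -7.57 ± 1.59).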

How the data were processed

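Polyadenylated RNA of liver was made into strand-marking libraries and sequenced as single reads, per the labels' protocols. The submitters' processing notes list Trimmomatic 0.36, HISAT2 2.1.0, HTSeq and GRCm38; neither the strand setting nor a version of HTSeq was given there. The deposited table holds whole-number counts per gene, not normalised by the authors. The members and gene lists were chosen with earlier results of these data known.

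Genes were kept by edgeR's filterByExpr (15851 of 33019), scaled by TMM and fitted by genotype over all 24 libraries (edgeR 4.0.16, R 4.3.3, robust glmQLFit, glmQLFTest). Contrasts were DKO minus TSC1 KO, Atg5 KO minus WT and their difference. P-values were adjusted by Benjamini-Hochberg over all tested genes. SE is the absolute log2 fold change over the square root of F.

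Named by rule were the 4 targeted genes, the 10 largest rises and 10 largest falls, the 6 largest interactions each way and up to 4 genes of each class with opposite directions. From each list the rule took up to 4 members by smallest adjusted p and up to 2 by highest level. The largest changes needed a call, a mean of 5 CPM in the highest group and, for rises and falls, no overlap of libraries, and symbols starting Gm or holding Rik were passed over. Some genes that the rule names are not reported here. Other genes are said to be chosen after their values were seen.

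Alternatives were DESeq2 1.42.0, edgeR with DESeq2's size factors or total-count scaling, a replicate block, no low-count filter, a fit of the compared groups only, a 2-fold minimum and each library left out. The fitting script was tested on simulated data.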

Additional observations from a re-analysis of the deposited data

Results flagged for a closer look

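The Atg5 effect with the Tsc1 deletion and the effect without it differed, by edgeR's interaction term at an adjusted p under 0.05, for the following genes, all but the urinary protein pseudogene Mup-ps19 described above. Each value is the log2 fold change of DKO versus TSC1 KO minus that of Atg5 KO versus WT. Among hepatocyte and metabolic genes the interaction was -2.17 for Alb, -3.50 for Cyp2e1, -4.39 for Slc10a1, -5.95 for Fabp1, -1.70 for Sdhb, -2.19 for Plg, -8.02 for Ces3a, -7.59 for Elovl3, -9.47 for Rhbg and -8.11 for Mup-ps19. It was -2.52 for Atg5 itself, -2.79 for Rragd, -1.89 for Gstm1, -3.34 for Gstm4, -5.04 for Gpx2, -3.84 for Rsad2 and -9.80 for Slco4c1. Positive interactions were 3.42 for Phgdh, 2.33 for Psat1, 2.97 for Nupr1, 4.13 for Pmaip1, 2.76 for Tead2, 4.91 for Peg3 and 1.69 for Cd44. Further positive ones were 6.18 for Pde6b, 7.04 for Lcn2, 6.14 for Mt2, 6.32 for Cyp2c69, 6.50 for Chil3 and 5.34 for Retnlg. Those of Slco4c1 and Rhbg involve a group with 0 counts, so their fitted size depends on the prior count of the fit. Genes called in opposite directions had 4.30 for Nucb2, 2.88 for Wfdc2, 2.47 for Steap2, 3.48 for Marveld3, -3.99 for Apol9a, -4.07 for Apol9b and -4.27 for Olfm3. It was -5.09 for Col5a2, also called in opposite directions, and -7.57 for Wfdc12, which was not called in Atg5 KO versus WT.

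Single libraries stood far from the other 3 of their group, by Dixon's test at the 95% level. Chance marks about 1 in 20 groups this way, but that rate does not hold for groups with a few counts. A single library with counts among libraries with none is always marked, as for Apela and Uchl1 in TSC1 KO and Gpx2 in WT. No cause was tested. DKO library 1 was high for Elovl3 (1.143 CPM), Ces3a (10.4 CPM), Sult2a8 (7.027 CPM), Mup3 (77.75 CPM), Mup6 (3.485 CPM), Mup14 (3.085 CPM) and Mup-ps13 (5.256 CPM), and low for Ankrd1 (111.5 CPM). DKO library 4 was high for Pmaip1 (41.01 CPM) and Nfe2l2 (161.8 CPM) and low for Ctss (96.61 CPM). TSC1 KO library 1 was high for Apoa1 (21440 CPM), Apoe (40560 CPM), Ftl1 (2324 CPM) and Apela (0.1093 CPM). It was low for Hnf4a (463.5 CPM), Txnrd1 (140.4 CPM) and Cd63 (11.04 CPM). TSC1 KO library 2 was low for Mup3 (7219 CPM) and Mup4 (3.415 CPM) and high for Uchl1 (0.1897 CPM). TSC1 KO library 4 was high for Rian (98.91 CPM) and Meg3 (203.2 CPM). In Atg5 KO, library 4 was high for Lcn2 (754.7 CPM), Mt2 (66.71 CPM) and Saa4 (323.5 CPM). Atg5 KO library 2 was low for Psat1 (1.258 CPM) and Ccl2 (5.032 CPM) and high for Tsc1 (45.65 CPM). Library 1 was high for Ankrd1 (12.96 CPM) and library 3 for Pde6b (0.2389 CPM). In WT, library 4 was high for Lcn2 (2844 CPM), Mt2 (753.2 CPM), Nucb2 (19.85 CPM) and Gpnmb (0.2436 CPM) and low for Rsad2 (3.776 CPM). WT library 3 was low for Spp1 (50.39 CPM) and Pde6b (0 CPM) and high for Gpx2 (0.1059 CPM). WT library 2 was low for Bub1b (0.231 CPM) and S100b (0 CPM) and high for Wfdc12 (0.8085 CPM).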

How the results depend on the processing

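The count of called genes stayed within 1.5 times of the reported value under every alternative run except the 2-fold minimum, which left 6600 genes in DKO versus TSC1 KO, 2540 in Atg5 KO versus WT and 3383 with an interaction. Leaving out 1 of the compared libraries gave 10117 to 10457 calls in DKO versus TSC1 KO, 3582 to 5245 in Atg5 KO versus WT and 4888 to 5500 interactions, and leaving out Nrf2 TKO library 2 gave 10787, 4910 and 5627. The 1794 genes lower in Atg5 KO than in WT became 1088 with no filter and 349 with total counts alone, and the 4762 lower in DKO became 1894 with total counts alone. DESeq2 gave 11180, 5033 and 5796. The labels do not say what the replicate numbers mark. Same-numbered libraries correlated at -0.05 to 0.24, and 2 of 8 correlated best with their own number. The highest value was that of Atg5 KO library 4 with WT library 4. Such correlations cannot show whether the numbers mark a shared litter or batch. A replicate block gave 10516, 4607 and 5388 calls. Genes with called opposite directions were 115 with no filter on low counts and, with 1 library left out, 107 (without Atg5 KO library 3) to 196 (without Nrf2 TKO library 2). That library, which enters only the shared fit, had 14173 counts of Xist and 5 of Ddx3y, and leaving it out was chosen after seeing the data. Total counts alone turned the log2 fold change in DKO versus TSC1 KO of Gstm4 to 0.025, Fn1 to 0.626, C3 to 0.444, Yap1 to 0.413, Ctsl to 0.290, Slc40a1 to 0.347 and Gclm to 0.378. They turned that in Atg5 KO versus WT of Sdhb to 0.131 and Tsc1 to 0.234, and the interaction of Col1a1 to 0.387. The uncalled interaction of Spp1 was -0.004 with DESeq2's size factors and -0.061 with only the compared groups fitted. With 1 library left out, Tsc1 ran from -0.007 to 0.368 in DKO versus TSC1 KO, Pde6b from -0.054 to 0.673 and Mup-ps19 from -0.008 to 0.260 in Atg5 KO versus WT, and the interactions from -0.257 to 0.207 for Spp1 and from -0.304 to 0.081 for Col1a1. The cause of these turns was not tested. Totals ran from 11283916 to 13057467 counts in the 16 libraries compared, and folds of genes with a few counts in a group rest on those counts.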
